A study of Mus musculus with 2 samples.

Results

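The genes of antigen presentation by MHC class II were followed in M-MDSCs, the monocytic fraction of myeloid-derived suppressor cells, isolated from 4T1 tumours of mice on a normal-salt diet (NSD) or a high-salt diet (HSD). They were chosen by name, as 10 genes of the pathway, out of the 20653 genes that could be named on the arrays. Every non-control probe that carried a RefSeq transcript of one of these genes was taken, which gave 12 probes, 2 each for H2-Ab1 and H2-Ob and 1 for each of the other 8 genes. None of the 10 genes differed by 1.5-fold or more between the diets, and 79.8% of all genes with a usable probe were likewise within 1.5-fold. The largest difference was that of H2-Aa, 1.46-fold higher under HSD. At the brightest probe 8 of the 10 genes had a higher value under HSD, beside 54.2% of all genes, and 2 had a lower value.

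The cells came from female BALB/c mice (spelled BABL/c in the labels), each injected under the skin of the left armpit with 1000000 4T1 cells, a mammary carcinoma line. The NSD group received chow with 0.4% NaCl and tap water for 16 days, and the HSD group received chow with 4% NaCl and water with 1% NaCl for the same 16 days. All mice of both groups carried the tumour, and the labels name no genetic change in any of them. M-MDSCs were isolated with magnetic beads as CD11b+Ly6-C+ cells, and the cells of a diet group were mixed in equal numbers before RNA was extracted, labelled with Cy3 and hybridised to 1 array per diet. Each probe therefore has 1 pooled value per diet, the spread between mice is unknown, and the diet could not be tested. In RNA of a cell pool, fewer cells of a type and less RNA per cell cannot be told apart.

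MHC class II molecules are pairs of an α and a β chain that carry peptides of ingested proteins to the cell surface for CD4+ T cells. In the endoplasmic reticulum the pair is held by the invariant chain, which endosomal proteases cut down to a fragment, CLIP. The H2-M complex then exchanges CLIP for antigenic peptides, and H2-O restrains H2-M. Transcription of nearly all of these genes depends on the coactivator CIITA, which has no DNA contact of its own and is recruited by factors bound to a shared promoter element with an X box (RFX complex, CREB) and a Y box (NF-Y). B cells, dendritic cells and activated macrophages are the main class II-positive cells, and monocytes and MDSCs usually carry less.

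Promoter sequences are shown because the X and Y boxes are where CIITA is recruited, and not every window matched both short motifs searched. The RefSeq promoter table (build GRCm38.p6) held windows for 7 of the 10 genes that were used here, all on chromosome 17, and no window of H2-Ab1, Cd74 or Ciita was used. Each line gives the 130 bases before the annotated start of transcription, written 5′ to 3′ along the gene. Capitals mark a part of the X box (ACNGATG) and the core of the Y box (GATTGG) on either strand.
H2-Aa (chr17:34287824-34287953, minus strand): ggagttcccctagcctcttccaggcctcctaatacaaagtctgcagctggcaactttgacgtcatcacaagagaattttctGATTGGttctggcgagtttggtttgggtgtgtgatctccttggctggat
H2-Eb1 (chr17:34305737-34305866, plus strand): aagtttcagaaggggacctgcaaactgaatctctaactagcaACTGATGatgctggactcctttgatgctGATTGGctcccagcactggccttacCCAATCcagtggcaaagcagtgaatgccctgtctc
H2-DMb1 (chr17:34153061-34153190, plus strand): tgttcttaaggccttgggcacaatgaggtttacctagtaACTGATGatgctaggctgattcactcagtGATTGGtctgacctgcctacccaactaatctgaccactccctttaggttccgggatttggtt
H2-DMb2 (chr17:34145119-34145248, plus strand): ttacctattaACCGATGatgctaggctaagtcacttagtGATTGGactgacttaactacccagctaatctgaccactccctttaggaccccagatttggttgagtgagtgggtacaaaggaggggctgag
H2-Oa (chr17:34092249-34092378, plus strand): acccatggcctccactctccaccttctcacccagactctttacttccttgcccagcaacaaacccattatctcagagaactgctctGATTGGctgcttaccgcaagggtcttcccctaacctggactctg
H2-Ob (chr17:34238775-34238904, plus strand): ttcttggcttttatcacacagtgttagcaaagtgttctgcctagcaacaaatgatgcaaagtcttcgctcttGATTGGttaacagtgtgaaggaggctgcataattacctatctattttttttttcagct

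The Y box core was searched for in windows of 250 bases before and 50 after the start, on either strand. It was found for all 7 genes whose windows were used, against 18.2% of the 27025 genes with a window. No window of H2-Ab1, Cd74 or Ciita was searched, so the counts leave these genes out and their matches are unknown. The Y box core was shortened from the motif set first, CTGATTGG, which contains it, after the windows had been seen. The longer motif was present for 3 of the 7 genes, H2-Aa, H2-Eb1 and H2-Oa, and for 4.70% of all genes. The X box part was present for 5 of the 7 genes and for 11.2% of all genes. In H2-Eb1, H2-DMb1 and H2-DMb2 it preceded the Y box core on the written strand by 28, 29 and 29 bases from start to start. Such an order within 40 bases, a limit also set after the windows had been seen, occurred in 0.0555% of all genes. H2-DMa had 2 windows, and its only match was a Y box core 199 bases before one of its starts, outside the stretch shown. The ACNGATG matches of H2-Aa, on the opposite strand, and of H2-Oa lie 232 and 137 bases before the start, outside the stretches shown. That of H2-Oa preceded the Y box core by 93 bases, against 28 or 29 in H2-Eb1, H2-DMb1 and H2-DMb2. Whether either match is part of an X box was not tested. A window without a match may still hold the box in other letters. All of these are matches of letters in the C57BL/6J reference, and they say nothing of which factors were bound in the M-MDSCs.

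On both arrays, each of the 12 probes stood well above background and none was saturated. Across the arrays, 71.9% of the probes were well above background under NSD and 72.4% under HSD, and the 75th percentiles, by which the arrays were scaled, were 252 and 233 intensity units. Signals below are in intensity units as extracted from the scans, with the error of the spot that the software estimated. Log2 differences are HSD minus NSD after the 75th percentile of each array had been subtracted on the log2 scale, with an error combined from both spots. A difference in signal can therefore be smaller or larger than, or opposite to, the scaled difference. Folds are likewise given after scaling. Each of these probes was printed in a single spot, and the software's error was close to 10.0% of the signal, so the log2 differences had errors between 0.204 and 0.206. The SD between spots of probes printed many times, 0.0821 per array (median of 289 probes), was smaller. Neither covers the variation between mice. The signals of different probes were not compared with each other, since probes differ in their binding. The mice carried class II alleles other than those of the C57BL/6J reference, and whether the probes matched their transcripts was not tested.

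H2-Ab1, which encodes the β chain of I-A, had almost the same signal on the arrays. Its first probe (transcript NM_207105, as for the second) read 8658 ± 866 under NSD and 8845 ± 884 under HSD. The second read 7995 ± 800 and 7555 ± 756. The scaled log2 differences were 0.15 ± 0.20 and 0.033 ± 0.20, both smaller than their errors. The second probe was the only one of the 12 whose direction turned with the scaling, to −0.081 with cyclic loess.

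H2-Aa (NM_010378), which encodes the α chain of the same molecule, was at 69.5 ± 7.05 under NSD and 93.7 ± 9.45 under HSD. The HSD value was the higher one, with a log2 difference of 0.55 ± 0.21 and a 95% interval of the spot error from 0.14 to 0.95. It was the largest difference of the 12 probes, at 2.64 times its error, and still below 1.5-fold. With normexp background correction it was 0.38. The chains of I-A differed from each other by 0.40 in their log2 differences, with an interval from −0.17 to 0.97, which includes 0.

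H2-Eb1 (NM_010382), the β chain of I-E, read 5030.1 ± 503 under NSD and 5639 ± 564 under HSD. Its log2 difference was 0.28 ± 0.20, 1.21-fold, and lay between 0.15 and 0.29 under the other ways of processing. Cd74 (NM_001042605), the invariant chain, read 3321 ± 332 and 3823 ± 382, a log2 difference of 0.32 ± 0.20, or 1.25-fold. Both transcripts were thus somewhat higher under HSD, by less than 2 errors of the spots.

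Ciita (NM_001243760), the coactivator on which the other genes depend, was one of the 2 genes with a lower value under HSD. It read 256 ± 25.7 under NSD and 216 ± 21.7 under HSD. The log2 difference of −0.13 ± 0.20 was smaller than its error, with an interval from −0.53 to 0.27. Cd74 and Ciita differed in their log2 differences by 0.45, with an interval from −0.12 to 1.01.

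Of the genes of the H2-M peptide editor, H2-DMa (NM_010386), the α chain, read 135 ± 13.5 under NSD and 112 ± 11.3 under HSD. It was the other gene with a lower value under HSD, with a log2 difference of −0.15 ± 0.20, or −0.029 with normexp correction. H2-DMb1 (NM_010387), a β chain, was level at 1144 ± 114 and 1146 ± 115, a log2 difference of 0.12 ± 0.20. H2-DMb2 (NM_010388), the second β chain gene, read 114 ± 11.4 and 127 ± 12.7, a log2 difference of 0.27 ± 0.20. The β chain genes are close copies of each other and neighbours on the chromosome, and whether their probes tell them apart was not tested. The differences of DMa from DMb1 (−0.27, interval −0.83 to 0.30) and of DMb2 from DMb1 (0.15, interval −0.41 to 0.72) were within the spot error. H2-Aa exceeded H2-DMa by 0.70 in log2 difference, with an interval from 0.13 to 1.27. That was beyond the spot error, unlike the other pairs compared. The pair joins the highest and the lowest value of the class II genes, and the interval leaves out the variation between mice.

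H2-Oa (NM_008206), the α chain of the H2-O inhibitor, read 203 ± 20.3 under NSD and 206 ± 20.6 under HSD, a log2 difference of 0.14 ± 0.20. H2-Ob (NM_010389), its β chain, had 2 probes, and both gave a higher value under HSD. The first read 620.1 ± 62.0 and 727 ± 72.7, a log2 difference of 0.34 ± 0.20. The second read 54.2 ± 5.50 and 67.3 ± 6.79, a log2 difference of 0.43 ± 0.21, at 2.07 times its error. H2-Ob and H2-Oa differed from each other by 0.21, with an interval from −0.36 to 0.77.

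**Figure D1:**
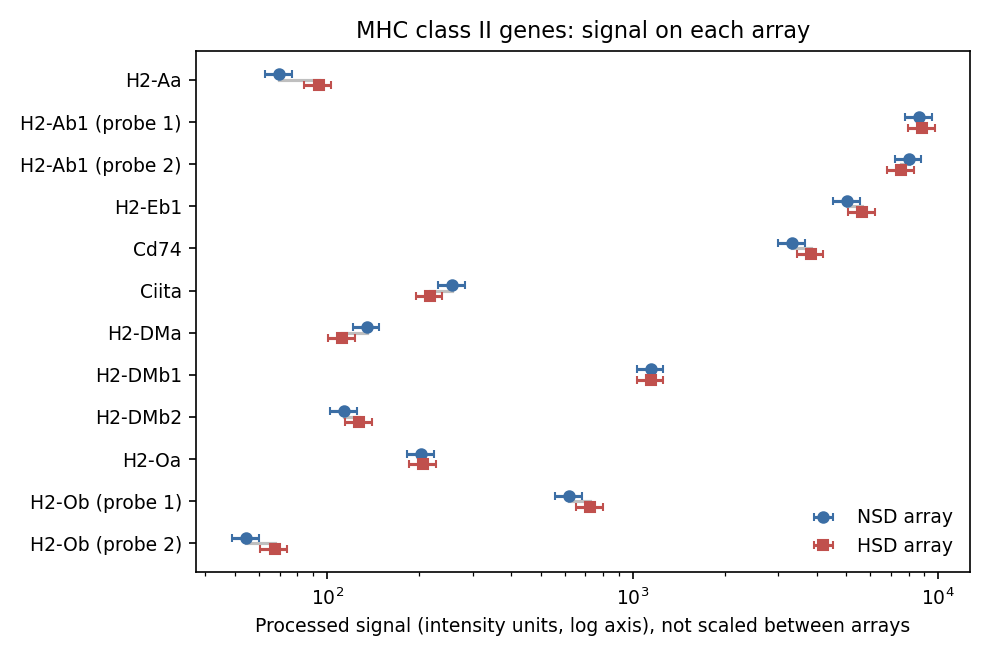
Signal of the 12 class II probes on the NSD array (blue circles) and the HSD array (red squares), in intensity units on a log axis and not scaled between the arrays, with the error of each spot from the software. Points of a probe lie close together, and the unscaled error bars do not overlap for H2-Aa (69.5 and 93.7) and H2-Ob probe 2 (54.2 and 67.3).

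Counted over the 12 probes, 10 had a higher and 2 a lower scaled value under HSD. The difference was smaller than its error for 6 probes, between 1 and 2 errors for 4 and over 2 errors for 2 probes, those of H2-Aa and the second of H2-Ob. At the brightest probe of each gene, 0 of 10 genes were higher under HSD by 1.5-fold or more and 0 were lower by as much. Of 16312 genes whose probe could be used, 9.86% lay 1.5-fold or more above their NSD value and 10.3% as far below it, and 79.8% were within 1.5-fold. With cyclic loess the shares past 1.5-fold were 7.63% higher and 12.2% lower. Among the 8401 genes well above background on both arrays and with signals in the range of the class II genes, the shares were 8.36% and 8.82%. Since most genes lay within 1.5-fold, the counts of 0 set nothing apart in the class II genes. The 8 genes of 10 with a higher value stand beside 54.2% of all genes. The median log2 difference of the 10 genes was 0.21, and that of all genes was 0.045. The medians of the absolute differences were 0.21 for the class II genes and 0.28 for all genes.

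**Figure D2:**
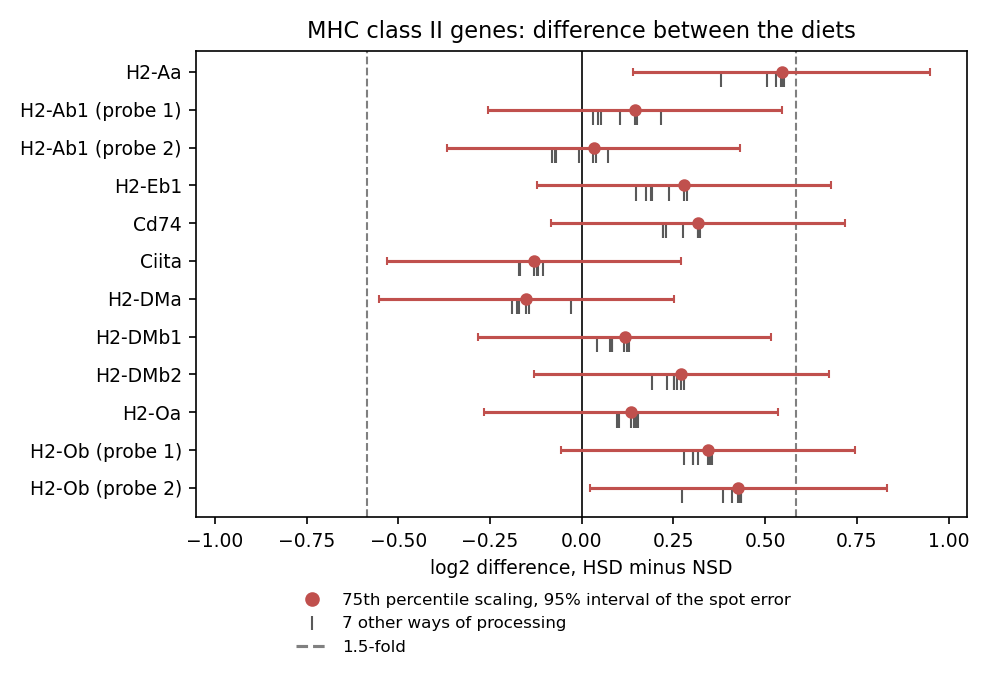
Log2 difference (HSD minus NSD) of each class II probe with the 95% interval of the spot error (red), its values under 7 other ways of processing (grey ticks) and the 1.5-fold limits (dashed lines). All values lie within 1.5-fold, and the intervals of H2-Aa (0.14 to 0.95) and of H2-Ob, probe 2 (0.022 to 0.83), are those that do not include 0.

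**Figure D3:**
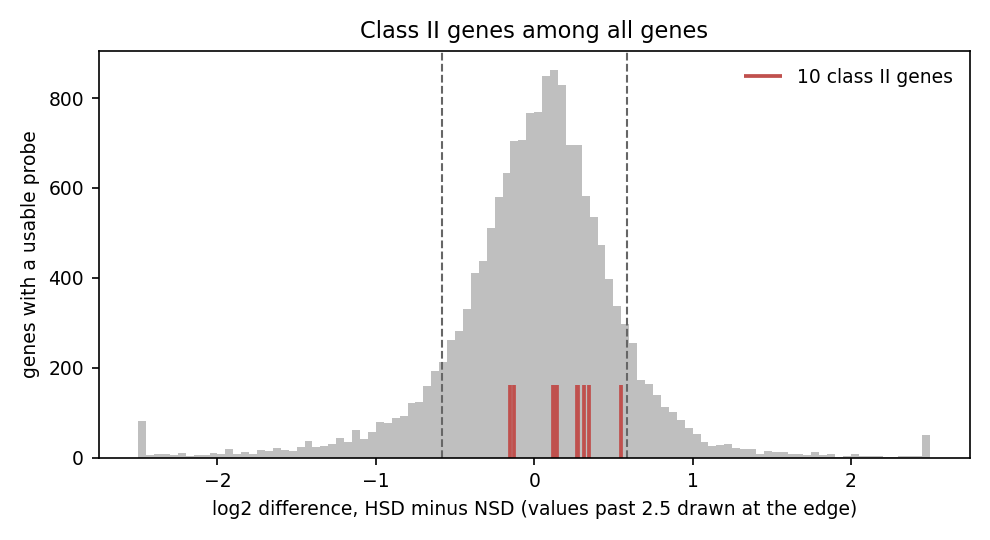
Number of genes with a usable probe by log2 difference (HSD minus NSD, grey bars, values past 2.5 drawn at the edges), with the 10 class II genes at their brightest probe as red lines and the 1.5-fold limits dashed. The class II genes lie between −0.15 and 0.55, inside the bulk of the 16312 genes.

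The proteases that prepare the invariant chain and the peptides went another way for 3 of 9 listed genes, and no gene of this list was higher by 1.5-fold or more. For this and the lists below, the shares over all genes were 9.86% higher and 10.3% lower by 1.5-fold or more. Lgmn, the asparaginyl endopeptidase legumain, had a signal of 7000.5 under NSD and 1379 under HSD, 4.69-fold lower. Ctsl, cathepsin L, went from 16372 to 5453, 2.77-fold lower. Ctss, cathepsin S, which makes the last cuts of the invariant chain in antigen-presenting cells, went from 24546 to 9101, 2.49-fold lower. These 3 genes remained lower by 1.5-fold or more under each of the 6 other background corrections and scalings tried. The other 6 genes were within 1.5-fold, with log2 differences between −0.38 for Ifi30, the lysosomal thiol reductase, and 0.21 for Ctsc. The median of the 9 genes was −0.14.

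Of the 7 genes of factors that bind the class II promoter, 1 was higher by 1.5-fold or more and none was lower by as much, and the median log2 difference was 0.23. Creb1, which encodes a factor of the X box, read 91.2 under NSD and 165 under HSD at its brighter probe, a log2 difference of 0.97. Its other probe gave 0.25, so the probes of Creb1 disagree. Rfx5, a subunit of the RFX complex, was close to the limit of detection at both of its probes. The brighter probe was well above background under NSD alone, at 6.26, and the other under HSD alone, at 5.13, so that no direction is given. Of the other RFX subunit genes, Rfxap had a log2 difference of 0.29 and Rfxank of −0.085. The NF-Y genes had 0.43 (Nfyb), 0.23 (Nfyc) and −0.20 (Nfya), and the probes of Nfyb disagree, since the dimmest of them gave −0.34.

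Of 12 genes listed as regulators of Ciita, 1 was higher and 1 lower by 1.5-fold or more, and the median log2 difference was 0.059. Irf4, a transcription factor of lymphoid and myeloid cells, read 83.1 under NSD and 132 under HSD, a log2 difference of 0.78. With normexp correction the log2 difference of Irf4 was 0.51 and did not reach 1.5-fold. Genes of the IFN-γ signal within 1.5-fold had log2 differences of −0.52 for the receptor gene Ifngr1 (past 1.5-fold with quantile normalization, cyclic loess and the deposited values, at −0.60, −0.63 and −0.61), 0.41 for Ifngr2, 0.34 for Jak1, 0.25 for Jak2 and −0.37 for Irf1. Socs1, an inhibitor of the same signal, had −0.39.

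Of 8 genes of surface turnover and trafficking of class II molecules, 1 was higher by 1.5-fold or more and none was lower by as much, and the median log2 difference was 0.039, or −0.067 with cyclic loess. Cd9, a tetraspanin, read 17217 under NSD and 25761 under HSD, a log2 difference of 0.70, which fell below 1.5-fold with cyclic loess, at 0.56. Marchf1, the ubiquitin ligase that takes class II molecules from the surface, was named after its values had been seen because its probes disagree. The brighter probe, measured in 1 spot, read 2902 and 2704, a log2 difference of 0.012. The other, measured in 10 spots, read 2059 and 828, a log2 difference of −1.20. The counts of this list use the brighter probe. Marchf8, a related ligase, had −0.014. Taken over all 36 genes of the pathway beside the class II genes, 3 were higher and 4 lower by 1.5-fold or more. That is close to the shares over all genes, 9.86% and 10.3%, and the median was 0.0046.

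The genes of MHC class I presentation, which loads peptides from the cytosol, served as a comparison. Of 15 listed genes, 6 were lower under HSD by 1.5-fold or more, beside 10.3% of all genes. None was higher by as much, beside 9.86% of all genes, and the median was −0.55. Over the 6 other background corrections and scalings, the number of lower genes lay between 6 and 8 and the median between −0.59 and −0.36. Tap1, a subunit of the peptide transporter, read 199.9 under NSD and 80.1 under HSD, a log2 difference of −1.21. Psmb10, an immunoproteasome subunit, read 1337 and 537, a log2 difference of −1.20. Nlrc5, the class I counterpart of Ciita, was named after its values had been seen, with a log2 difference of −0.85 at its brighter probe and 0.13 at the dim one. The highest value was that of Pdia3, a chaperone of the peptide-loading complex, at 0.018, which turned to −0.071 with cyclic loess. The class II genes ranged from −0.15 to 0.55 and the class I genes from −1.21 to 0.018. With 1 array per diet the difference between the lists was not tested.

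**Figure D4:**
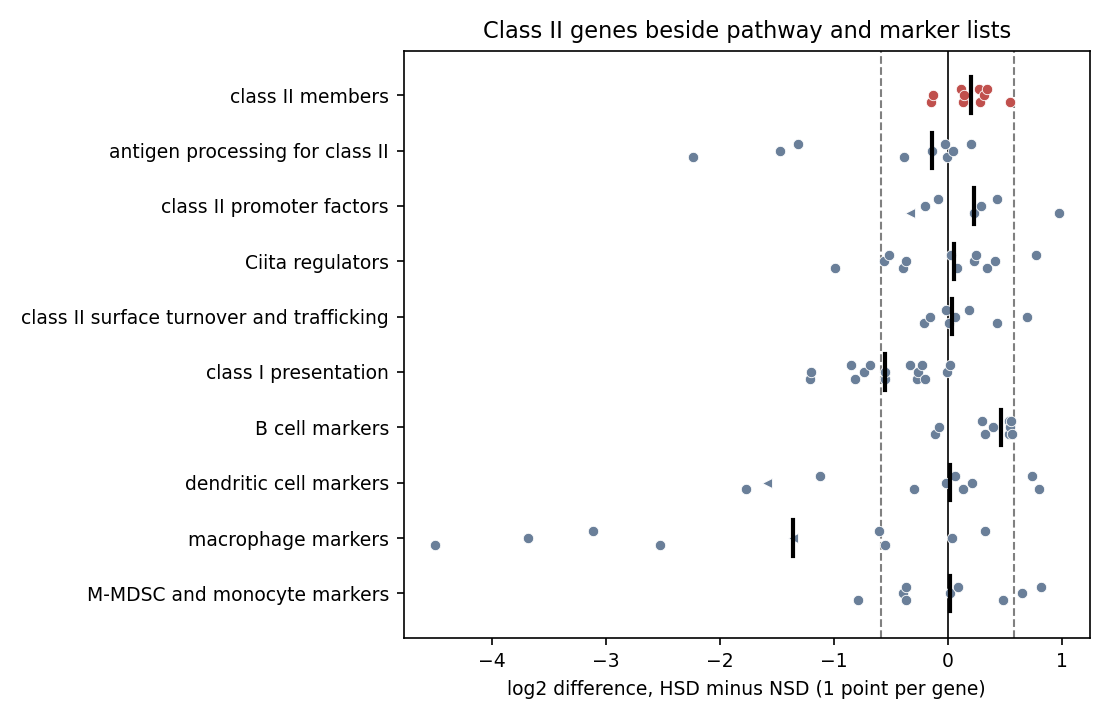
Log2 difference (HSD minus NSD) of each gene at its brightest probe, by list, with the median of the list as a black bar, the 1.5-fold limits dashed, and triangles for genes not well above background on one array, whose difference is a lower bound. The class II genes (red, median 0.21) lie within the limits, as do all 10 B cell markers (median 0.47), while 6 of 15 class I genes and 6 of 9 macrophage markers lie lower by 1.5-fold or more.

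Other cells that carry class II molecules could be followed by their markers, with sums over each list given in multiples of the array's 75th percentile. On both arrays, all 10 B cell markers stood well above background, among them Ms4a1 (1727 under NSD and 1968 under HSD) and Cd79b (3519 and 4080). At the brightest probe, 8 of these markers had a higher and 2 a lower value under HSD, beside 54.2% of all genes with a higher value. None differed by 1.5-fold, and the log2 differences lay between −0.11 and 0.57, with a median of 0.47. The dimmer probe of Cr2, a complement receptor, was 1.72-fold higher. Their summed level was 30.6 under NSD and 37.8 under HSD, a log2 difference of 0.31, and that of the class II genes was 77.5 and 89.9, a log2 difference of 0.21. The B cell sum and the class II sum were thus both higher under HSD, and the part of B cells in the class II values was not tested.

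Most macrophage markers were lower under HSD. At the brightest probe, 6 of 9 named markers were lower under HSD by 1.5-fold or more and none was higher by as much, with a median of −1.36, and the summed level was 58.0 under NSD and 37.9 under HSD. Mrc1, the mannose receptor, went from 134 to 5.49, a log2 difference of −4.50, and Fcgr1, an IgG receptor, from 305 to 21.9, a log2 difference of −3.68. C1qc (−3.11), Mertk (−2.52) and Apoe (−0.60) were lower as well, and C1qa, not well above background under HSD, was at least 2.56-fold lower. C1qb (0.33) and Vcam1 (0.035, and 0.83 at its dimmer probe) had higher values. With normexp correction 5 of the 9 markers were lower by 1.5-fold or more, the median was −0.60, and the log2 differences of Mrc1 and C1qa were −1.56 and −0.074. Adgre1 had −0.55, and −0.25 at its dimmer probe. With quantile normalization, cyclic loess and the deposited values it passed 1.5-fold, at −0.63, −0.65 and −0.63. There 7 of the 9 markers were lower by as much, with medians of −1.46, −1.49 and −1.24. The 75th percentile over probes detected on both arrays also gave 7.

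Of 11 named dendritic cell markers, 9 stood well above background on both arrays, and Xcr1 did so on neither. Lower by 1.5-fold or more were Clec10a (log2 difference −1.77), Batf3 (−1.12) and Cd209a, which read 14.3 under NSD and did not stand well above background under HSD. Higher by as much were Itgax (0.74) and Clec9a (0.80), the latter at only 6.93 and 11.1. With normexp correction Batf3 (−0.41), Cd209a (−0.24) and Clec9a (0.23) did not reach 1.5-fold, which left 1 marker lower and 1 higher. The median was 0.023, and the summed level was 59.7 under NSD and 61.9 under HSD. The part of macrophages and dendritic cells in the class II values was not tested.

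The label of the cells was set against markers of M-MDSCs and monocytes, of which 9 of 10 could be named, Ly6c2 being the exception. All 9 were well above background on both arrays, among them Itgam (CD11b), at 31564 under NSD and 31043 under HSD, and Ly6c1, at 51811 and 48478. Cd14 (log2 difference 0.82) and Chil3 (0.65) were higher by 1.5-fold or more and Ccr2 (−0.78) was lower by as much, though Chil3 was at 0.50 with cyclic loess. All 9 named neutrophil markers were also well above background on both arrays, S100a8 at 57914 and 56478 and Ltf at 51766 and 51993, with 1 of them, Mpo (−0.92), lower by 1.5-fold or more and a median of 0.078. Of 9 markers of T and NK cells, Ncr1 was well above background on neither array and Cd3e (−1.09) was lower by 1.5-fold or more, with a median of 0.070. All 8 epithelial markers were well above background, with signals of at most 46.6, and Krt18 (0.76), Epcam (0.70) and Krt8 (0.61) were higher by 1.5-fold or more, but not with normexp correction. Krt5 (−0.54) and Cdh1 (−0.43) had lower values, the median was 0.18, and the summed level was 0.746 under NSD and 0.762 under HSD.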

How the data were processed

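RNA of M-MDSCs was hybridised to Agilent Mouse GE v2 arrays (4 × 44 k format, Cy3), 1 per diet. The authors deposited the scanner output, in which the processed signal and its error are intensities after the background and spatial detrending steps of Feature Extraction 11.0.1.1, without normalization between arrays. The authors also deposited a table of log2 values from GeneSpring, whose percentiles are almost the same on both arrays (75th percentile 7.89 on each) and which holds 27.9% and 27.5% of the probes at a floor. The normalization method is not given in the sources used here. The table served as an alternative, and 0 of its columns of sample values were left unused.

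Control spots and outlier spots (162 in NSD, 179 in HSD) were left out, spots of a probe were averaged on the log2 scale, and values were taken relative to their array's 75th percentile. A probe was well above background when at least 50% of its spots were. Where it was so on 1 array only, the fold was given as a bound, with the dim side set to the lowest signal well above background or to the probe's own where higher (4.61 in NSD, 4.39 in HSD). No p-value is given. The 95% intervals use 1.96 times the software's error and cover the spot measurement only, and the number of arrays limits every value.

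Transcript identifiers, without versions, were looked up in RefSeq (GRCm38.p6), and 27223 of 39413 probes received a gene name. The array was designed on an older assembly, so only promoter windows carry coordinates. A gene was taken at its probe with the highest mean log2 signal, and class II genes also at every probe. The genes named are the 10 class II genes, the genes of the other lists past 1.5-fold, markers dim on both arrays and the extremes of the class I list. The single values of some listed genes are not reported here. The class II genes and all lists were chosen with earlier results of these data known. The step that calls a probe past 1.5-fold was run on simulated data with known changes. Those changes were larger than those of the class II genes, and the simulated noise was smaller than the software's spot error. Gene naming and the choice of a probe per gene were not part of that run. The tools were limma 3.58.1 under R 4.3.3, and matplotlib 3.10.9, pandas 2.3.3 and numpy 2.4.6 under Python 3.11.15.

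The alternatives were normexp correction (offset 50, on median signals), quantile normalization, median scaling, cyclic loess, the deposited log2 values, the 75th percentile over probes detected on both arrays, a filter on both arrays, no filter, outlier spots kept, the median or the most changed probe of a gene, and a 2-fold threshold.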

Additional observations from a re-analysis of the deposited data

How the results depend on the processing

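Under all 12 alternatives, 0 of the 10 class II genes were at least 1.5-fold higher (or 2-fold, where that was the threshold) and 0 were lower. Their median log2 difference lay between 0.14 with cyclic loess and 0.21 with median scaling, and 8 genes were higher and 2 lower at the brightest probe under each. The median of all genes moved by at most 0.069, with cyclic loess, which brought it to −0.024. With normexp correction 3.89% of all genes were higher and 4.07% lower by 1.5-fold or more, against 9.86% and 10.3%. Of 84 values of the 12 probes under 7 alternatives, 80 moved by less than 0.116, the spot SD of a difference, and the 4 that moved further were those with normexp correction. The direction held for 11 probes, and the exception was the second probe of H2-Ab1. No paired analysis was possible because each diet has 1 array. Both arrays are single hybridisations, and leaving one out was not possible.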
